A study of Setaria viridis with 5 samples.

Results

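The genes described here were 150 transcripts of the Setaria viridis leaf that were found in few cells but reached many copies in some of them. Setaria viridis is a small C4 grass used as a laboratory model. The genes were chosen from 35214 in the files by 3 measured values. All wild-type barcodes with at least 1000 unique molecular identifiers (UMIs, each standing for 1 captured RNA molecule) were pooled, which gave 17669 barcodes. A gene was kept if it had a count above 0 in 0.2% to 3% of them, and 6802 genes lay in that range. Genes with a mean of at least 10 counts per 1000000 (CPM) over the 5 libraries were dropped if the genotypes stood 2-fold apart without overlap, which removed 2 genes. Of the 6800 genes left, the 150 with the highest mean count per detecting barcode were taken. A detecting barcode is one with at least 1 UMI of the gene. Because the wild-type values and the genotype contrast took part in the choice, they are given below as descriptions.

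The study asked what SHORT ROOT does for cell identities in a C4 leaf. Cells came from the middle of leaves of 4-week-old plants of strain A10, as protoplasts, whose walls had been digested with enzymes. Analysed here were 3 libraries of wild type and 2 of shr2. The protocol describes 3 replicates of each genotype, and any other shr2 library was not analysed here. The submitters describe shr2 as a loss of function of that gene made with CRISPR. No other agent or allele is named for either genotype, and the sources used here do not give the mutation itself or how many mutant lines were used. Poly(A) RNA was captured in droplets with the 10x Genomics 3′ kit, so a count comes from the 3′ end of a transcript.

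In C4 leaves, carbon is first fixed in mesophyll cells and then released to the Calvin cycle in the bundle sheath cells around the veins. Leaves also hold rarer cells, among them guard cells, other epidermal cells and the several cell types of xylem and phloem. SHORT ROOT is a GRAS-family transcription factor known best from Arabidopsis, where it moves from the vascular tissue into the surrounding layer and is needed for that layer's identity. Transcripts abundant in few cells are a usual mark of rare cell types and of short-lived cell states. None of the 35214 identifiers matched the gene table used here, in which 34587 genes are listed (0 matched), so no gene below has a name or a known role. For the same reason the tissue label, the targeted gene and cell types could not be checked by marker genes.

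The libraries differed in ways that did not follow genotype. They held between 4511 and 10182 barcodes with at least 1000 UMIs, and the median UMIs of these barcodes lay between 7042.5 in shr2 replicate 1 and 11307.5 in shr2 replicate 2. Wild-type replicates 2 and 3 were the most alike pair over 7275 genes, with an SD of the log2 CPM ratio of 0.118. Wild-type replicate 1 was 0.682 and 0.678 from them, and closer to shr2 replicate 1, at 0.441. Any pair of libraries shared between 7 and 16 barcode sequences. Since the labels tie no replicate to separate plants beyond calling them independent, the spread between libraries may be partly technical.

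The mean count per detecting wild-type barcode had a median of 3.44 over the 150 genes and ran from 2.63 to 24.8. Over all 6800 eligible genes the median was 1.04, so a typical gene of the same rarity gave hardly more than 1 UMI where it was found. The 150 genes were found in 36 to 520 of the pooled wild-type barcodes, with a median of 188.5, or 1.07%. Their counts were spread unevenly among these barcodes. At the median gene, 46.2% of detecting barcodes held 1 UMI only, the strongest barcode held 6.47% of all its wild-type UMIs, and the 10 strongest held 34.3%. For 132 of the 150 genes, at least 1 wild-type barcode held 20 UMIs or more. In droplet data, RNA free in the suspension gives stray UMIs in cells that do not express a gene. No cell class that should lack these genes could be named, so no background share could be set beside the shares of barcodes below; shares of barcodes with 5 UMIs or more are given where they bear on a value.

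Summed over whole libraries, most of the 150 were rare transcripts. Mean summed abundance ran from 0.532 to 46.7 CPM with a median of 4.39 CPM. It was at least 10 CPM for 25 genes and lower for 125, so the filter on genotype applied to 25 of them only. Of the 150 genes, 148 were found in all 5 libraries and 2 were at a count of 0 in a library. The identifiers fell on all numbered series of the annotation. Those with the prefix Sevir.8G made up 3.83% of the eligible genes of that series (15 genes), the highest share of any numbered series, and those with Sevir.1G made up 1.32% (10 genes), the lowest. Another 2 of the 150 had identifiers outside the numbered series.

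The strongest was Sevir.2G190900, with 24.8 UMIs per detecting wild-type barcode. It had 2656 UMIs in 88 barcodes of wild-type replicate 1, 51 UMIs in 14 barcodes of replicate 2 and 22 UMIs in 8 barcodes of replicate 3. In shr2 replicates 1 and 2 it had 8326 UMIs in 201 barcodes and 34 UMIs in 9 barcodes. Wild-type replicate 1 and shr2 replicate 1 were therefore high and the other 3 libraries low, so the genotypes overlapped. The strongest barcode held 634 UMIs of it, in shr2 replicate 1.

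Sevir.8G121100 and Sevir.8G121200, next to each other in the numbering, had ranks 2 and 5 by strength. Sevir.8G121100 was found in 107, 39 and 37 barcodes of wild-type replicates 1, 2 and 3 with 973, 579 and 851 UMIs, and in 170 and 60 barcodes of shr2 replicates 1 and 2 with 1460 and 1040 UMIs. Its share of barcodes lay between 0.780% and 1.67% in all libraries, and the genotypes overlapped. Sevir.8G121200 was found in 106, 153 and 145 wild-type barcodes with 740, 2317 and 1584 UMIs, and in 356 and 93 shr2 barcodes with 2563 and 666 UMIs. This gene was lowest by share of barcodes in wild-type replicate 1, at 1.30%, and higher in replicates 2 and 3, at 3.06% and 3.21%, the opposite of the order seen for Sevir.2G190900. Although the identifiers are neighbours, the genes shared few barcodes, with a phi coefficient of detection of 0.061 in wild type. Where near-identical copies of a gene lie side by side, counting can split or merge their reads, and such copies could not be looked for here.

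Sevir.5G175300 and Sevir.2G054700 had ranks 3 and 4, at 12.2 and 11.6 UMIs per detecting wild-type barcode. Sevir.5G175300 was found in 2.38%, 1.26% and 1.06% of barcodes of the wild-type libraries and in 2.47% and 2.55% of those of shr2. Sevir.2G054700 was found in 4.13%, 0.380% and 0.377% of wild-type barcodes and in 7.70% and 3.37% of shr2 barcodes. Both were low in wild-type replicates 2 and 3. The shr2 libraries stood above all wild-type libraries for Sevir.5G175300 by a narrow margin, and overlapped with wild-type replicate 1 for Sevir.2G054700. Sevir.2G054700 had 18.2 and 25.3 UMIs per detecting barcode in wild-type replicates 2 and 3, where it was rarest, and these means rested on few barcodes. In wild-type replicate 1 and in shr2 replicate 1 it had 10.5.

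Sevir.8G058000, at rank 7 with 8.88 UMIs, was the most widespread of the 10 strongest. It was found in 391, 70 and 54 barcodes of wild-type replicates 1, 2 and 3 (4.79%, 1.4% and 1.20%), and in 1008 and 417 barcodes of shr2 replicates 1 and 2 (9.90% and 8.18%). Both shr2 libraries lay above all 3 wild-type libraries. The order was the same after each barcode was thinned at random to 3000 UMIs, with 3.13%, 1.00% and 0.896% in wild type and 7.64% and 4.76% in shr2.

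Of the other 4 among the 10 strongest, Sevir.6G066300, Sevir.7G303000 and Sevir.6G223800 had uneven counts between libraries. The counts are given here without scaling to library size. Sevir.6G066300 had 514, 3 and 90 UMIs in the wild-type libraries, 87 of the 90 in 1 barcode, and 260 and 42 in shr2. Sevir.7G303000 had 749, 120 and 163 UMIs in wild type and 205 and 366 in shr2. Sevir.6G223800 had 602, 31 and 2 UMIs in wild type and 190 and 61 in shr2. For all 3 genes wild-type replicate 1 was the highest library. Sevir.9G113400, at rank 9, differed from these in that wild-type replicate 1 was low: it had 150, 274 and 494 UMIs in wild type and 140 and 182 in shr2. Of its 494 UMIs in wild-type replicate 3, 286 came from 1 barcode.

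**Figure D1:**
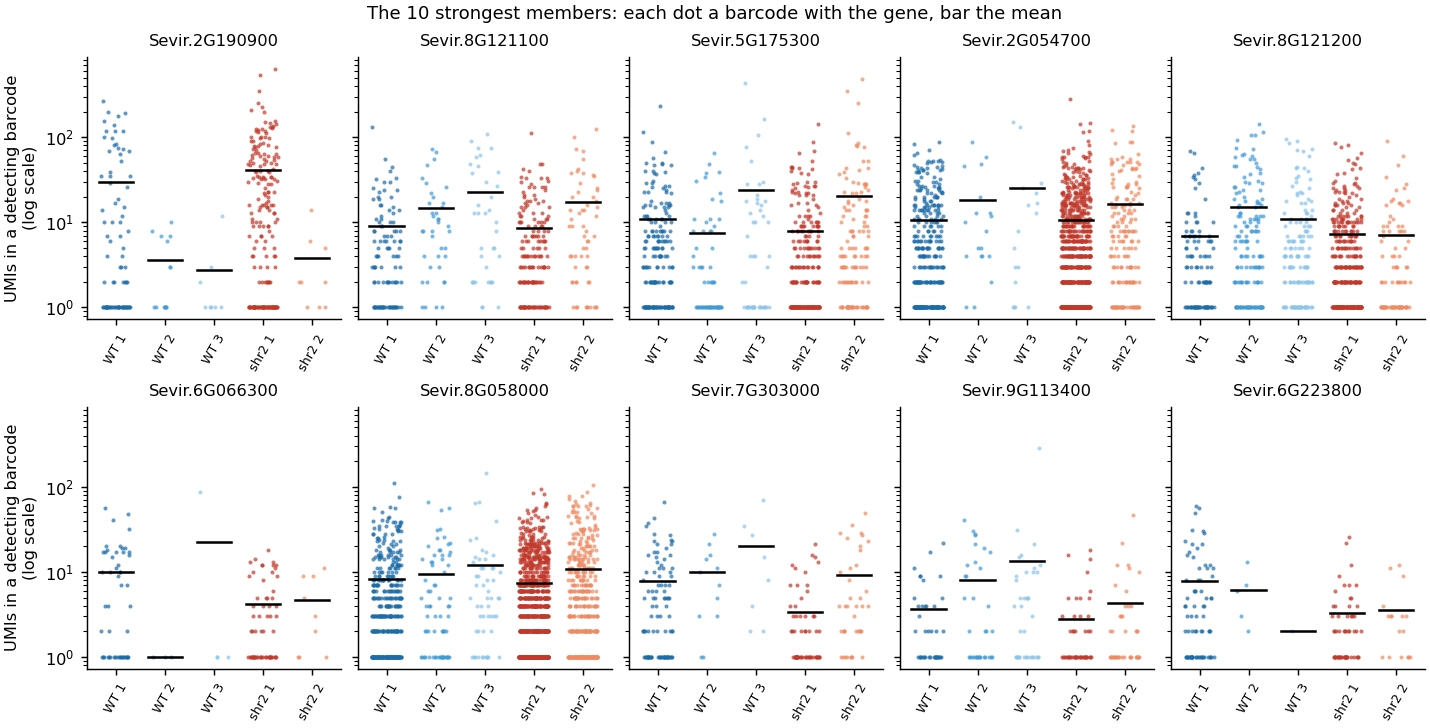
UMIs of each of the 10 strongest genes in every detecting barcode (dots, log scale), by library, with the mean over detecting barcodes as a bar. Sevir.2G190900 reached 634 UMIs in shr2 replicate 1 and at most 14 in wild-type replicates 2 and 3 and shr2 replicate 2, while Sevir.8G058000 was found in all libraries and in the most barcodes in shr2 replicate 1 (1008).

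The limit at 150 fell in a continuous range. The last genes inside it were Sevir.3G209800, Sevir.9G450300 and Sevir.1G332600, at 2.64, 2.64 and 2.63 UMIs per detecting barcode. The first outside were Sevir.8G152300, Sevir.9G510600 and Sevir.4G258800, at 2.62, 2.61 and 2.61. Without their own strongest barcode, 24 of the 150 genes would have fallen below 2.63. The choice leaned on wild-type replicate 1, which gave 8161 of the pooled barcodes. When the selection was repeated without that library, 99 of the 150 genes were chosen again, against 130 without replicate 2 and 133 without replicate 3.

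The shr2 libraries took no part in ranking the genes by strength, so they gave a reading from other samples. When the eligible genes found in at least 5 barcodes of pooled shr2 (6797 genes) were ranked by their mean count per detecting shr2 barcode, 118 of the 150 genes were again in the top 150, and 147 were in the top 300. The median mean count in shr2 was 2.97 for the 150 genes and 1.03 for the eligible genes. Each shr2 library alone gave 113 and 111 of the 150 in its own top 150. The same count within single wild-type libraries, which had shaped the list, was 127, 112 and 106. Most of the 150 were weaker in pooled shr2 than in the pooled wild type in which they were chosen, and 29 had a higher mean count per detecting barcode in pooled shr2. Within single libraries the median mean count was 3.20, 4.02 and 3.81 in wild type and 2.46 and 3.44 in shr2. The genotypes thus overlapped, so no difference between them is read from the pooled values.

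**Figure D2:**
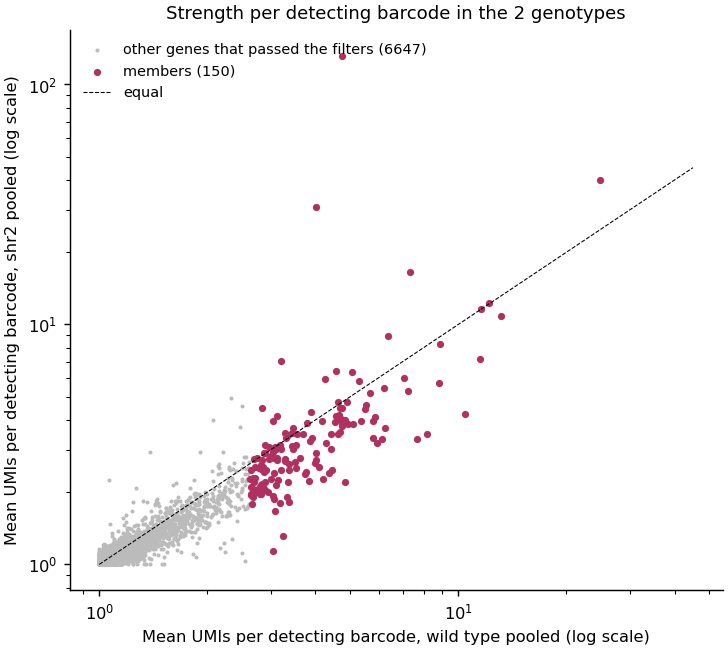
Mean UMIs per detecting barcode in pooled wild type (x, log scale) and pooled shr2 (y, log scale) for the 150 genes (red) and the other eligible genes found in at least 5 shr2 barcodes (grey), with the line of equal values. The 150 genes have a median of 3.44 in wild type and 2.97 in shr2, against 1.04 and 1.03 for all eligible genes; the highest point in shr2 is Sevir.9G178300.

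The share of barcodes in which a gene of the list was found varied more between wild-type libraries than between the medians of the genotypes. The median share over the 150 genes was 1.30% in wild-type replicate 1, 0.610% in replicate 2 and 0.587% in replicate 3, and 1.32% and 1.28% in shr2 replicates 1 and 2. Wild-type replicate 1 was the highest of the wild-type libraries for 122 of the 150 genes, where 65.9% of the eligible genes showed that order. After thinning to 3000 UMIs per barcode the medians were 0.672%, 0.319% and 0.299% in wild type and 0.699% and 0.542% in shr2, and wild-type replicate 1 was highest for 113 genes (57.5% of the eligible genes). Barcodes with fewer than 3000 UMIs, at most 1247 in a library, are absent from thinned values. By the share of barcodes with 5 UMIs or more of the gene, wild-type replicate 1 was highest for 103 genes (7.91% of the eligible genes). At that count the median share over the eligible genes was 0% in every library, so many of them could not show this order.

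Shares that separated the genotypes were more often higher in shr2. After thinning to 3000 UMIs, 30 of the 150 genes were found in a larger share of barcodes in both shr2 libraries than in any wild-type library (9.81% of eligible genes), and 6 in a smaller share (13.1%). Without thinning the counts were 35 (6.9%) and 3 (14.1%), and thinned to 1000 UMIs they were 34 (10.1%) and 9 (12.1%). By summed CPM, where 18911 tested genes are the background, 33 of the 150 genes were higher in both shr2 libraries (12.4%) and 9 lower (12.5%). Counting barcodes with 5 UMIs or more, they were 22 (1.28%) and 6 (0.853%), though few eligible genes reach 5 UMIs in any barcode. The selection used the genotype contrast and the wild-type shares, so nothing is read from these counts.

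Among genes without overlap, the largest ratio in favour of shr2 belonged to Sevir.5G456400. Thinned to 3000 UMIs, it was found in 0.350%, 0.159% and 0.199% of barcodes of wild-type replicates 1, 2 and 3 and in 1.15% and 1.68% of those of shr2 replicates 1 and 2. All shr2 values were above all wild-type values, and the ratio of means was 6.0. Its summed abundance was 1.57, 0.982 and 1.5 CPM in wild type and 7.42 and 10.6 CPM in shr2.

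Sevir.1G319500 and Sevir.4G109800 followed, with ratios of 3.99 and 3.73. Sevir.1G319500 was found in 0.377%, 0.114% and 0.249% of thinned wild-type barcodes and in 1.26% and 0.701% of those of shr2. Sevir.4G109800 was found in 0.134%, 0.0683% and 0.174% of wild-type barcodes and in 0.470% and 0.467% of shr2 barcodes. For Sevir.4G109800 the thinned shares of wild type rest on few barcodes, since it was found in 32, 6 and 8 wild-type barcodes in all before thinning.

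Fewer genes were found in a smaller share of shr2 barcodes. Sevir.3G209800, the gene at rank 148, was found in 0.861%, 0.774% and 0.822% of thinned wild-type barcodes and in 0.302% and 0.361% of those of shr2, a ratio of 0.405. The 3 wild-type libraries were close together for this gene and the shr2 libraries both well below. Sevir.6G046400 and Sevir.7G076900 had ratios of 0.454 and 0.482. Before thinning, the shares of Sevir.7G076900 overlapped, with 0.845%, 0.820% and 0.643% in wild type and 0.236% and 0.824% in shr2.

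Counts summed over each library were compared between genotypes with edgeR's quasi-likelihood test, fitted to 18911 genes. In such sums, fewer cells that express a gene and less RNA per cell cannot be told apart. With Benjamini-Hochberg adjustment, 0 of 18911 genes had an adjusted p under 0.05 (0%), and 0 of the 150, all of which were tested. The smallest adjusted p was 0.0555 over all genes and 0.249 among the 150. At an unadjusted p under 0.05, 1963 genes remained; of the 150, 22 were higher in shr2 (3.99% of all genes tested) and 5 lower (6.39%). DESeq2 gave 365 genes with an adjusted p under 0.05 (1.93%), 9 of them among the 150, 8 higher and 1 lower in shr2. With the replicate number as a block, edgeR called 556 genes (2.83%), 17 of them among the 150. The log2 fold change, shr2 over wild type, had a median of 0.33 over the 150 genes, with 92 above 0, and of −0.00 over all genes tested. Without wild-type replicate 1 the median over the 150 was 0.73.

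The fit gave Sevir.5G456400 a log2 fold change of 2.67 (SE 0.32) and an adjusted p of 0.249 (edgeR, quasi-likelihood), with the same sign in the 10 other fits that tested it. Its adjusted p ranged from 8.83e-09 in DESeq2 to 1.00. Sevir.3G209800 had a log2 fold change of −1.19 (SE 0.40) and an adjusted p of 0.436. For Sevir.2G190900, with its large counts in 1 library of each genotype, the estimate was 2.30 with an SE of 2.20 and an adjusted p of 0.749. None of these 3 differences passed the threshold over all genes in that test.

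The genes were next compared by whether they were found in the same barcodes. Co-detection was measured by the phi coefficient between the detection of 2 genes within a library, which is 0 when they meet as often as their shares predict and 1 when they always occur together. Phi cannot reach 1 when a gene is found in more barcodes than the other, and unequal depth among the barcodes of a library can raise it. Over the 11175 pairs the median phi was 0.0098, −0.0024 and −0.0025 in wild-type replicates 1, 2 and 3 and 0.0091 and 0.0152 in shr2 replicates 1 and 2. Genes this rare often have no barcode in common by their shares alone, and phi is then just below 0. In wild-type replicates 2 and 3, 6812 and 7155 pairs never met, so these medians say little about such pairs. In the other libraries 2482 (wild-type replicate 1), 2587 and 3276 (shr2) pairs never met. Averaged over the wild-type libraries, the best partner of a gene within the list had a median phi of 0.121, and for 53 of the 150 genes it was under 0.1.

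A tree of the 150 genes cut at a phi of 0.2 gave 3 groups of at least 3 genes, with 14 genes in all, and 7 pairs, leaving 122 genes alone. Cutting at 0.1 gave 7 wider groups with 56 genes, lettered A to G here, and left 94 outside. Groups were formed in wild type, so their phi there is a description. The phi of the same pairs in shr2 comes from libraries that took no part in forming them.

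Group 1 held 7 genes: Sevir.2G072700, Sevir.9G113400, Sevir.3G333000, Sevir.9G227700, Sevir.3G332800, Sevir.5G446200 and Sevir.7G076900. The median phi of its 21 pairs was 0.238, 0.357 and 0.297 in the wild-type libraries. In shr2 it was 0.158 and 0.204, against 0.0091 and 0.0152 for all pairs, and all 21 pairs were positive in both shr2 libraries. Sevir.2G072700 had the highest mean phi to the others, 0.389 in wild type and 0.171 and 0.302 in shr2. Its closest partner was Sevir.9G227700: the pair met in 33, 13 and 16 barcodes of the wild-type libraries, where 0.418, 0.156 and 0.317 would be predicted from their shares, and in 6 and 14 barcodes of shr2, where 0.115 and 0.217 would be.

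A barcode was counted as carrying a group if at least 3 of its genes were found in it. Group 1 was carried by 35, 27 and 30 barcodes of wild-type replicates 1, 2 and 3, which is 0.429%, 0.540% and 0.665%. It was carried by 14 and 25 barcodes of shr2 replicates 1 and 2, which is 0.137% and 0.490%. The shr2 replicate 1 value lay below all wild-type values and its exact 95% binomial interval, 0.0752% to 0.231%, did not reach theirs, while shr2 replicate 2 lay within the wild-type range. These intervals cover counting error only. The overlap ended after thinning to 3000 UMIs, where the shares were 0.229%, 0.319% and 0.349% in wild type and 0.0560% and 0.149% in shr2, the latter from 5 and 7 barcodes. It also ended without the deepest 6% of barcodes, at 0.366%, 0.534% and 0.615% in wild type and 0.136% and 0.335% in shr2. There the margin was narrow, with 28 of 7657 barcodes in wild-type replicate 1 and 16 of 4781 in shr2 replicate 2. No counting intervals were computed for the thinned shares or for these. The carrying barcodes, under 1% of all, held 65.3%, 84.5% and 85.9% of the group's UMIs in wild type and 38.2% and 47.8% in shr2. Their median depth in wild type was 11035, 7396 and 9058.5 UMIs against 9964.5, 10424.5 and 10006 in the rest, above it in replicate 1 only. In shr2 it was 7351.5 and 16537 against 7041.5 and 11292.

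Group 1 lay inside the wider group A, which held 14 genes. Its carrying barcodes made up 0.809%, 0.820% and 0.909% of the wild-type libraries, with the 3 close together, and 0.403% and 1.08% of shr2 replicates 1 and 2, on either side of them. After thinning to 3000 UMIs the shares were 0.538%, 0.569% and 0.597% in wild type and 0.224% and 0.404% in shr2, without overlap. The genotypes did overlap without the deepest barcodes, removed as for group 1. The shares were then 0.692%, 0.833% and 0.875% in wild type and 0.346% and 0.732% in shr2. Depth moved with the change on thinning. In shr2 replicate 2 the carrying barcodes had a median of 18628 UMIs against 11284 in the rest. In wild-type replicates 2 and 3 the carrying barcodes were shallower than the rest. The part of depth in the difference was not tested further. In wild type, where the groups were formed, group A shared at most 1 carrying barcode with group B. It shared 0 with groups C, D, E, F and G in any wild-type library. Groups carried by so few barcodes can share 0 by their shares alone, so little is read from this. In shr2 replicates 1 and 2, 4 and 7 barcodes carrying A also carried group B (9.76% and 12.7%). Group C was also carried by 3 and 4 of them, and group A by 3 and 4 of the 14 and 14 carrying group G. In shr2 the phi between carrying A and carrying B was 0.007 and 0.038. With C it was 0.040 and 0.051, and with G 0.123 and 0.140.

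**Figure D3:**
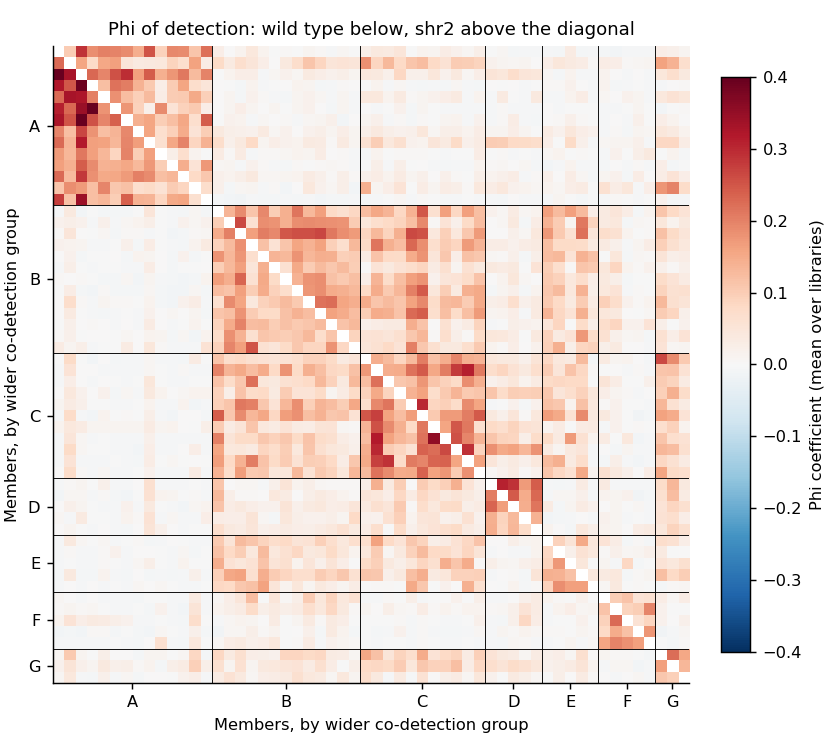
Phi coefficient of detection between genes of the 7 wider groups (A to G, axes in the same gene order), averaged over the 3 wild-type libraries below the diagonal and over the 2 shr2 libraries above it; red is positive and blue negative. Group A forms a block with phi near 0 to most genes of other groups, groups B and C also have positive phi with each other, and group D is strong above the diagonal through shr2 replicate 1 (median phi 0.414 there and 0.014 in shr2 replicate 2).

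Groups 2 and 3 held 4 and 3 genes and lay in the wider group C, which had 11 genes. Group 2 consisted of Sevir.9G220300, Sevir.6G129700, Sevir.2G229000 and Sevir.6G134900, and was carried by 14, 7 and 3 barcodes of wild type and by 11 and 11 of shr2. Group 3 consisted of Sevir.8G185100, Sevir.4G243300 and Sevir.1G319500, which met in 1, 2 and 1 barcodes of wild type and in 3 and 2 of shr2. The shares overlapped between the genotypes for both groups, on few barcodes. With at least 2 genes needed to carry a group, group 3 no longer overlapped, with 17, 3 and 3 barcodes in wild type (0.208%, 0.0600% and 0.0665%) and 35 and 13 in shr2 (0.344% and 0.255%). The margin between wild-type replicate 1 and shr2 replicate 2 was narrow, and their counting intervals overlapped. By mean phi in wild type, the strongest tie of group 2 was that of Sevir.9G220300 with Sevir.2G229000, with a phi of 0.228, 0.467 and 0.368 in wild type and 0.113 and 0.200 in shr2. This pair met in 12, 5 and 3 wild-type barcodes, and was not the strongest in wild-type replicate 1 or in shr2. Sevir.6G129700 with Sevir.6G134900 had a phi of 0.286 in wild-type replicate 1 and of 0.196 and 0.363 in shr2.

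Group C as a whole was carried by 0.968%, 0.420% and 0.355% of barcodes in wild-type replicates 1, 2 and 3 and by 1.03% and 1.43% in shr2 replicates 1 and 2. The genotypes did not overlap, but the margin between wild-type replicate 1 and shr2 replicate 1 was within the counting intervals, 0.767% to 1.21% and 0.844% to 1.25%. Without the 6% of barcodes with the most UMIs in each library they overlapped, at 0.823% and 0.797%. All 55 pairs of the group were positive in both shr2 libraries, with a median phi of 0.119 and 0.177.

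Group B was the most widely carried and held 13 genes, among them 3 of the 10 strongest, Sevir.8G058000, Sevir.2G054700 and Sevir.5G175300. It was carried by 327, 39 and 32 barcodes of wild-type replicates 1, 2 and 3 (4.01%, 0.780% and 0.709%) and by 702 and 248 barcodes of shr2 (6.90% and 4.87%). Both shr2 libraries were above all wild-type libraries, with wild-type replicate 1 closer to shr2 than to the other wild-type libraries. The counting intervals of wild-type replicate 1 and shr2 replicate 2 overlapped. Both shr2 libraries also lay above wild type after thinning to 3000 UMIs, at 1.71%, 0.319% and 0.398% in wild type and 3.60% and 2.06% in shr2, and without the deepest 6% of barcodes, at 3.25%, 0.512% and 0.449% and 5.00% and 3.79%. The margin between wild-type replicate 1 and shr2 replicate 2 was narrow in both, and no counting intervals were computed for these shares. The median phi within the group was 0.150, 0.10 and 0.099 in wild type and 0.134 and 0.153 in shr2, where all 78 pairs were positive.

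Barcodes that carried group B were deeper than the rest in every library, by medians of 14906, 16946 and 15852.5 UMIs against 9792, 10391 and 9973 in wild type, and 11415.5 and 18172 against 6807 and 11089.5 in shr2. Groups B and C were often carried by the same barcodes. Of the barcodes carrying group C, 60.8%, 42.9% and 31.2% also carried group B in wild type, as did 68.6% and 52.1% in shr2. The reverse shares were lower, at 14.7%, 23.1% and 15.6% in wild type and 10.3% and 15.3% in shr2. Barcodes that hold more than 1 cell were not removed, and their part in this overlap was not tested.

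**Figure D4:**
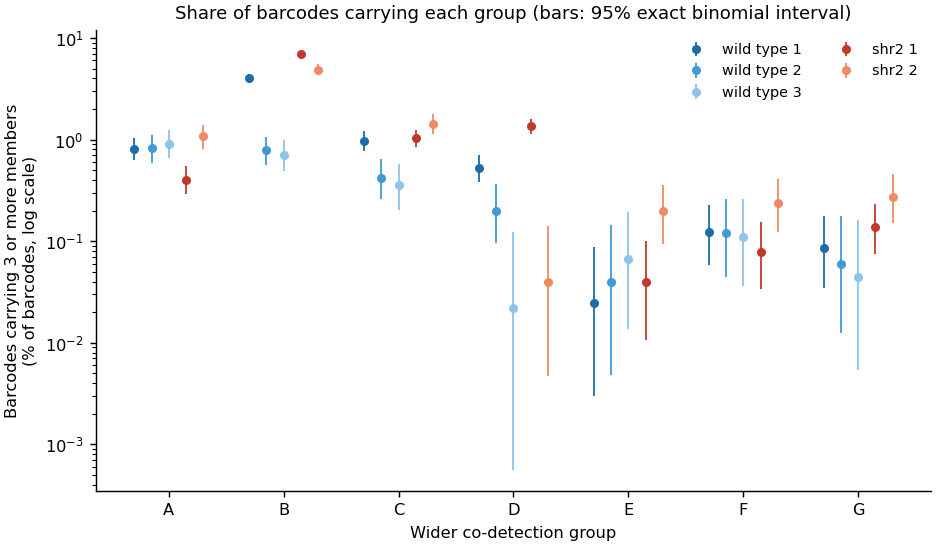
Share of barcodes (%, log scale) carrying at least 3 genes of each wider group, by library, with exact 95% binomial intervals of counting error. Group A lies near 0.8% to 0.9% in all wild-type libraries; group B is lowest in wild-type replicates 2 and 3 (0.780% and 0.709%); group D is highest in shr2 replicate 1 (1.36%) and wild-type replicate 1 (0.527%).

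Group D followed individual libraries in both genotypes. Its 5 genes were Sevir.2G190900, Sevir.2G430100, Sevir.2G313900, Sevir.3G182600 and Sevir.2G395700. It was carried by 43, 10 and 1 barcodes of wild-type replicates 1, 2 and 3 (0.527%, 0.200% and 0.0222%) and by 138 and 2 barcodes of shr2 replicates 1 and 2 (1.36% and 0.0392%). Wild-type replicate 1 and shr2 replicate 1 were thus high, and the genotypes overlapped. Those barcodes held 75.0% and 92.2% of the group's UMIs in these 2 libraries, but 33.9% and 3.12% in wild-type replicates 2 and 3 and 9.53% in shr2 replicate 2.

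The genes of group D differed in how far they were bound to the carrying barcodes. Sevir.2G190900 had 92.6% of its UMIs in them in wild-type replicate 1 and 97.2% in shr2 replicate 1. The 43 and 138 carrying barcodes of these libraries held a mean of 57.2 and 58.6 UMIs of it, not scaled to depth. The level was far lower in the 10 and 1 carrying barcodes of wild-type replicates 2 and 3, at 4.2 and 3.0 UMIs. It was also low in the 2 of shr2 replicate 2, at 2.5. In wild-type replicate 1 and shr2 replicate 1, Sevir.2G313900 had 36.9 and 43.6 UMIs per carrying barcode and Sevir.2G430100 had 13.3 and 13.1. The other two genes of the group differed more, with 4.35 and 11 UMIs for Sevir.3G182600 and 2.49 and 1.61 for Sevir.2G395700. In the other libraries Sevir.2G313900 was still found in 45, 35 and 68 barcodes, but with 256, 89 and 228 UMIs in all.

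**Figure D5:**
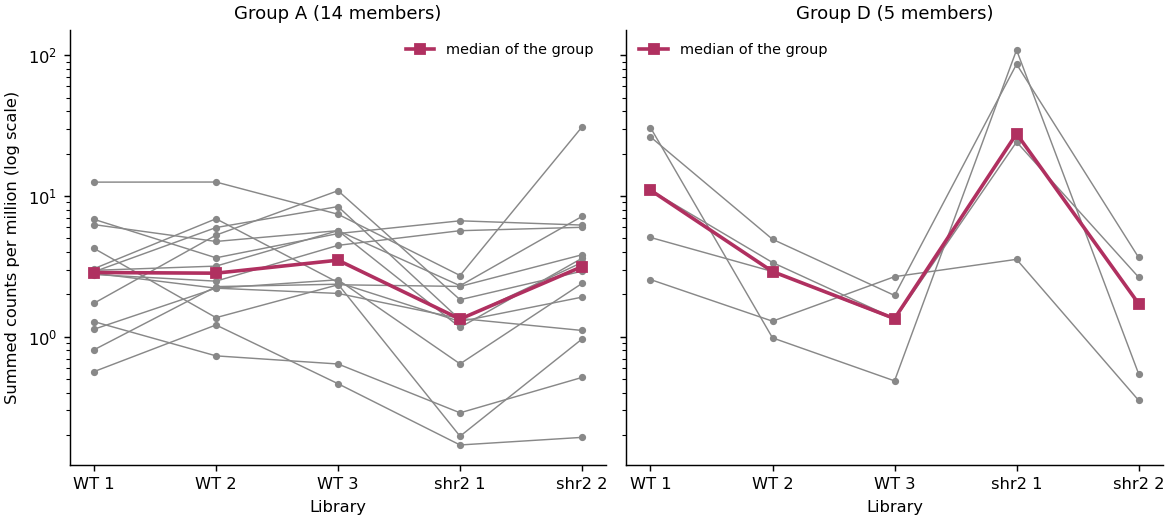
Summed CPM of each gene of groups A and D by library (grey lines, log scale) with the median of the group (red). All genes of group D are highest in shr2 replicate 1 (Sevir.2G190900 at 109 CPM, against 0.546 CPM in shr2 replicate 2), and wild-type replicate 1 is the highest wild-type library for all of them but Sevir.2G395700. In group A, Sevir.3G332800 (0.196 to 2.36 CPM) and Sevir.3G315400 (2.72 to 31.0 CPM) have the widest ranges by ratio.

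The smaller wider groups E, F and G held 5, 5 and 3 genes and were carried by at most 14 barcodes in any library. Group E was led by Sevir.6G098000 and Sevir.3G352200 and rested on wild-type replicate 3, where its median phi was 0.257, against 0.047 and 0.065 in replicates 1 and 2 and 0.036 and 0.066 in shr2. In wild-type replicate 3, Sevir.6G098000 was found in 1 barcode, in which it met each other gene of the group. The mean phi of Sevir.6G098000 to the group was 0.306 there. It was 0.019 and 0.130 in wild-type replicates 1 and 2 and 0.028 and 0.035 in shr2. Group F was led by Sevir.7G185300 and Sevir.5G250600, with a median phi of 0.101, 0.155 and 0.148 in wild type and 0.058 and 0.116 in shr2. Group G was led by Sevir.4G034300 and had a median phi of 0.099, 0.109 and 0.116 in wild type and 0.121 and 0.193 in shr2. Its carrying barcodes, 7, 3 and 2 in wild type and 14 and 14 in shr2, did not overlap in share, but overlapped after thinning to 3000 UMIs. Of the pairs outside the 3 groups cut at 0.2, Sevir.3G091100 and Sevir.3G083800 were the closest, with a phi of 0.206, 0.316 and 0.383 in wild type. In shr2 this pair had a phi of 0.033 in replicate 1 and 0.352 in replicate 2.

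Genes outside the list were ranked by how closely their detection followed the barcodes carrying each group, over 17673 genes found in at least 0.2% of wild-type barcodes. For group 1 the closest was Sevir.1G274400, found in 51.4%, 48.1% and 56.7% of carrying barcodes of wild type and in 0.527%, 0.420% and 0.532% of all barcodes there. In shr2, which took no part in the ranking, it was found in 78.6% and 48.0% of carrying barcodes and in 0.452% and 0.490% of all. It had a mean of 2.00 UMIs per detecting wild-type barcode, under the limit of the list. Sevir.7G214100 and Sevir.2G280800 were next, with a mean phi of 0.492 and 0.478 in wild type, and 0.324 and 0.359, and 0.472 and 0.325, in shr2.

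For groups 2 and 3 the ranking rested on few barcodes. Sevir.8G146500 and Sevir.1G205300 were among the 3 closest to both. Sevir.8G146500 was found in 28.6%, 42.9% and 66.7% of the 14, 7 and 3 wild-type barcodes carrying group 2, and in 45.5% and 36.4% of the 11 and 11 in shr2. Sevir.1G205300 was found in 71.4%, 57.1% and 100% of them in wild type and in 9.09% and 0% in shr2. There 0 of 11 barcodes allows a share of up to about 27.3%, taken as 3 over the number of barcodes and not as an exact limit. The others were Sevir.8G257700 for group 2 and Sevir.7G263200 for group 3, with a mean wild-type phi of 0.348 and 0.232.

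Genes with nearby identifiers met more often than others. Among the 150 there were 15 pairs whose identifiers lay at most 5 places apart in the numbering, with 30 genes. Their median phi was 0.061 in wild type and 0.066 in shr2, against 0.006 and 0.013 for all pairs. Of these pairs 53.3% had a wild-type phi over 0.05, and of all pairs 11.1%. The closest was Sevir.3G332800 with Sevir.3G333000 of group 1, with a phi of 0.370, 0.294 and 0.621 in wild type and 0.219 and 0.213 in shr2. Other such pairs had a mean wild-type phi near 0, such as Sevir.7G184100 and Sevir.7G184300 at −0.002 and Sevir.9G178300 and Sevir.9G178400 at −0.004; in shr2 the former pair had 0.0141 and 0.0486. These pairs were picked with their values in view, and an excess of joint detection can also come from reads split between similar copies, which was not tested.

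Seen from the barcodes, few held many of these genes. The median barcode held 2, 1 and 1 of the 150 in wild-type replicates 1, 2 and 3 and 2 and 1 in shr2 replicates 1 and 2. None was found in 24.9%, 40.5% and 42.1% of wild-type barcodes and in 22.0% and 28.9% of shr2 barcodes. Barcodes with 10 or more made up 4.72%, 0.881% and 0.665% of the wild-type libraries and 4.72% and 5.41% of shr2. These were deep barcodes, with a median of 17424, 14870.5 and 18001.5 UMIs in wild type, and after thinning to 3000 UMIs the shares were 0.753%, 0.159% and 0.299%, and 1.04% and 0.786% in shr2. All 150 genes together gave 0.0975%, 0.0586% and 0.0585% of the UMIs of the wild-type libraries and 0.139% and 0.115% of those of shr2. The highest number of them in a barcode was 47, in shr2 replicate 2.

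For 9 of the 150 genes, 1 barcode held over 25% of the wild-type UMIs. The extreme was Sevir.9G178300, described here because of its values. It had 7 UMIs in 7 barcodes of wild-type replicate 1, 285 in 41 barcodes of replicate 2 and 17 in 17 barcodes of replicate 3. In shr2 it had 38 UMIs in 25 barcodes of replicate 1 and 8927 in 43 barcodes of replicate 2. Of the 285 UMIs in wild-type replicate 2, 244 were in 1 barcode, and without that barcode its wild-type mean was 1.02 UMIs per detecting barcode. In shr2 replicate 2, 5 barcodes with 420, 1158, 4016, 2646 and 647 UMIs of the gene held 99.6% of its UMIs in that library. In these barcodes the gene alone gave between 10.6% and 25.9% of all UMIs and was the most abundant gene.

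The same 6 barcodes held many UMIs of 2 other genes of the list and several transcripts outside it that were hardly found elsewhere. Sevir.2G029500 had 40 UMIs in the wild-type barcode and 58, 108, 128, 594 and 152 in the 5 shr2 barcodes. Sevir.5G175300 had 11 UMIs there and 79, 44, 354, 490 and 113. Outside the list, Sevir.8G229200 had 1477 UMIs in shr2 replicate 2, all in the 5 barcodes, and 167 in wild-type replicate 2, all in the 1 barcode, with 0 in wild-type replicates 1 and 3 and 3 in shr2 replicate 1. Sevir.6G091100 had 1039 of 1040 and 341 of 342 UMIs in these barcodes and at most 1 in any other library. Sevir.8G230000 had 921 of 923 and 146 of 147. These genes were picked with their values in view, and with 6 barcodes in all no difference between genotypes can be read from them.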

How the data were processed

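Per the labels' protocols, leaf protoplasts were run on the 10x Genomics Chromium system. Per the submitters' processing notes, Cell Ranger 5.0.1 and Seurat 4.3.0 were used. The deposited matrices hold whole-number UMI counts per gene and barcode, not normalized; genome build, annotation source and cell-calling rule are not given in the sources used here. Barcodes with at least 1000 UMIs were used (8161, 4997 and 4511 in wild type, 10182 and 5098 in shr2), with 86694482, 51954410, 45289170, 76377386 and 62251842 UMIs. The CPM used to choose genes were computed over all deposited barcodes, and other CPM over those with at least 1000 UMIs. Barcodes were thinned to 3000 or 1000 UMIs without replacement, with a fixed seed. Doublets were not removed.

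Cells were not used as replicates. Sums per library went into edgeR 4.0.16 (R 4.3.3) with its filterByExpr, TMM scaling and quasi-likelihood functions glmQLFit and glmQLFTest (genotype as the only term; 3 against 2 libraries; Benjamini-Hochberg over all genes tested; threshold 0.05). The SE of a log2 fold change was taken as its size over the root of its F statistic. The procedure was also run on simulated counts. These were drawn independently for each library, so they lack the likeness of wild-type replicate 1 to shr2 replicate 1. DESeq2 1.42.0, other filters, a replicate block and leaving out each library were alternatives. Phi was computed within each library, averaged over wild type and clustered by average linkage. Shares carry exact Clopper-Pearson 95% intervals of counting error.

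Named genes are the 10 strongest, the 3 genes of each group with the highest mean phi, the 3 on each side of the limit, up to 3 each way by ratio of thinned shares among genes without overlap, and for each group the 3 closest outside genes. Others were chosen after their values were seen, as were the members of the wider groups. The 150 genes, lists and tests were chosen with earlier results of these data known. No sequence is shown, since no identifier matched the reference tables.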

Additional observations from a re-analysis of the deposited data

How the results depend on the processing

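The selection kept 147, 144, 114, 113, 150, 134 and 143 of the 150 genes with a minimum of 500 or 2000 UMIs, an upper limit of 2% or 5%, CPM over barcodes with at least 1000 UMIs, without the 6% deepest barcodes and without the strongest barcode of each gene; the last 3 were chosen after seeing the data. Leaving out a wild-type library kept 99 to 133, the lowest without replicate 1. The number of genes called by edgeR, 0, was 365 with DESeq2, 7 without a filter on low counts and 0 with at least 10 CPM, with all deposited barcodes, without each library in turn and with replicates 2 and 3 of wild type added together, an alternative chosen after seeing the data. At an unadjusted p under 0.05 the leave-out fits gave 764 to 5058 genes, the highest without wild-type replicate 1, and the summed fit 814. Of the 150 genes, 9 were called by DESeq2 and 0 in the other unblocked fits. With the replicate number as a block, edgeR called 556 genes and 17 of the 150, 15 higher and 2 lower in shr2. The labels do not tie the numbers to a shared day or plant. Deviations from the group means correlated at 0.758 between the replicates numbered 1 and 0.720 between those numbered 2, but with 2 shr2 libraries this is 1 comparison.

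The median over genes of the mean share of barcodes, 0.948% in wild type and 1.38% in shr2, was 0.247% and 0.299% thinned to 1000 UMIs, 0.471% and 0.646% thinned to 3000, 0.478% and 0.540% for at least 2 UMIs, and 0.190% and 0.189% for at least 5 UMIs, where the order of the genotypes was lost. The 3 groups with 14 genes became 7 with 56 at a phi of 0.1, 1 with 5 at 0.3, and 5 with 28 when detection needed 2 UMIs. Leaving out a wild-type library gave 3 to 4 groups with 17 to 20 genes. The shr2 minus wild-type difference in carrying barcodes was −0.231 points for group 1, −0.407 to −0.0544 without each library, the smallest without shr2 replicate 1. With at least 2 genes to carry a group, it went from 0.0359 to 0.193 points for group 2 and from 0.00953 to 0.188 for group 3. Signs changed without shr2 replicate 1 for the wider groups A (from −0.105 to 0.233) and D (from 0.448 to −0.210). They changed without shr2 replicate 2 for group 2 (to −0.0180) and the wider groups E (from 0.0740 to −0.00439) and F (from 0.0392 to −0.0392). With at least 2 genes group A went to 0.201, with at least 5 group E went to −0.00739 and F to −0.00326, and thinned to 1000 UMIs group 2 went to −0.000947. None of these groups therefore has a stable direction. With all 3 genes required, group 3 rested on at most 3 barcodes in a library.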
